A study of Rattus norvegicus with 8 samples.

Results

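LOC108351197 is a long non-coding RNA gene on rat chromosome 6, and it was described here at each polyadenylation site that carries its symbol. The table of whole transcriptome termini site sequencing (WTTS-seq), a method that counts the 3′ ends of polyadenylated RNA, lists 73922 sites, of which 65913 have one of 12255 genes assigned, and 4 of the sites bear this symbol. On the plus strand there are 3 of them, which define the gene total used below, while the remaining one lies alone on the minus strand. The gene was picked because the use of these sites differed between the groups in these same libraries, so its levels and shares are given as a description without a test.

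The 8 libraries were made from hypothalamus RNA of 8 male Long-Evans rats, all adult, 4 labelled as diet-induced obesity and 4 as control. Obesity rats ate freely from a high fat diet with 1.71 kcal/g from fat, control rats ate standard chow with 0.51 kcal/g from fat, and tissue was taken after 36 days. The strain, sex, stage and tissue were common to both groups. RNA was taken from tissue and not from sorted cells, so a different number of cells with the RNA and a different amount of RNA per cell cannot be told apart.

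An RNA made by RNA polymerase II is cut and given a poly(A) tail where the cleavage machinery recognises signals in the new transcript. Where a gene holds several such places in a row, the choice among them is called alternative polyadenylation, and it sets how far the RNA extends at its 3′ end. In a long non-coding RNA this choice does not alter a protein, but it decides which sequence the RNA contains. Neurons are known for frequent use of distal sites. The function of LOC108351197 is not described in the sources used here, and the sequence around its sites was not analysed here, so signals at the sites and priming inside A-rich stretches were not tested.

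On the Rnor_6.0 assembly, as the deposited table gives it, site 1 covered positions 31048975 to 31049025 of chromosome 6 on the plus strand. Site 2 covered 31049039 to 31049095, separated from site 1 by only 13 bases. Site 3 covered 31049646 to 31049686, with its peak coordinate 659 bases downstream of that of site 1. Read in the direction of the plus strand, site 1 is thus the proximal and site 3 the distal end of the group. Over all libraries, site 3 held 76.8% of the 3-site reads, site 1 held 21.5% and site 2 held 1.7%. The minus-strand site at 31072453 to 31072471, 22.8 kb beyond site 3, had 37 reads in all, between 1 and 11 per library, and it was left out of the gene total. No gene model of this build was used here, so the sites are not classed as exonic or intronic.

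LOC108351197 was among the most abundant non-coding genes of this tissue by 3′ end reads. Abundance is given as CPM, the reads at a site or gene per 1000000 reads of the library after TMM adjustment of its total. Because the assay reads one end per RNA, the values were not divided by length. The mean over 8 libraries was 1377 CPM, the second highest of 795 long non-coding RNA genes and rank 48 of all 12255 genes, where the median long non-coding gene had 6.38 CPM. Within its biotype it took 0.679% to 4.01% of the reads per library in control and 2.07% to 3.81% in obesity, so the groups overlapped in that share. The libraries held 1417531 to 1957726 reads each, and 0 of 12255 genes (0%) passed an adjusted p of 0.1 between the groups in the edgeR quasi-likelihood test, with 627 genes at an unadjusted p under 0.05, 34 genes (0.277%) with the library number as a block and 4 by the DESeq2 Wald test.

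The share of the reads at each site was the value that set the groups apart. Site 1 held 50.03% of the gene reads in control library 1 (95% Wilson interval 47.5 to 52.5), 51.8% in control 2 (47.9 to 55.6), 34.5% in control 3 (32.6 to 36.5) and 41.2% in control 4 (38.5 to 44.0). In obesity it held 8.32% in library 1 (7.53 to 9.18), 10.7% in library 2 (9.67 to 11.8), 18.9% in library 3 (17.3 to 20.5) and 13.7% in library 4 (12.5 to 15.1). These intervals cover the counting of reads within a library and not the spread between rats. The reads were amplified and carry no molecular identifiers, so the intervals may be too narrow for counts of molecules. Every control library lay above every obesity library, and the lowest control, number 3, was nearest to the highest obesity library, also number 3.

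Group means of the site 1 share were 12.9% ± 4.55 for obesity and 44.4% ± 8.02 for control (SD, n = 4), which differ by -31.5 percentage points. The share of site 3 was higher by nearly the same amount. By library number from 1 to 4, it was 48.6%, 45.6%, 63.9% and 55.3% for control and 90.4%, 87.6%, 79.6% and 84.5% for obesity. The means were 53.4% ± 8.11 and 85.5% ± 4.598 (SD, n = 4), 32.1 percentage points apart, and the groups did not overlap.

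**Figure D1:**
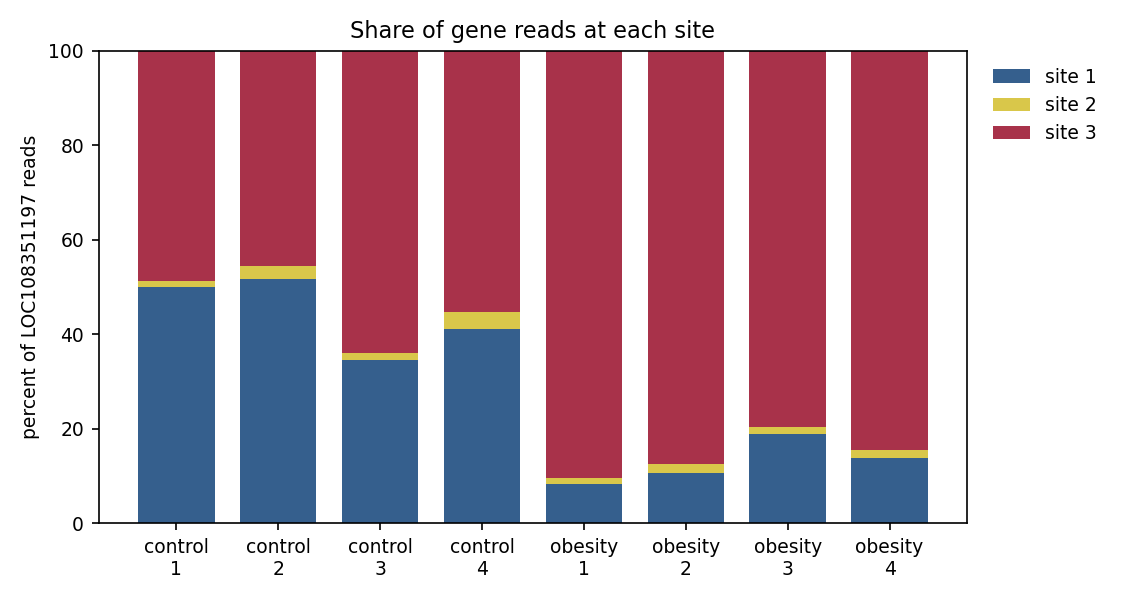
Stacked bars give the percent of LOC108351197 reads at site 1, site 2 and site 3 (y axis, 0 to 100) in each of the 4 control and 4 obesity libraries (x axis). Site 1 fills 34.5% to 51.8% of the control bars and 8.32% to 18.9% of the obesity bars.

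Site 2, next to site 1, stayed a minor end in every library. Its mean share was 2.25% ± 1.04 for control against 1.58% ± 0.226 for obesity (SD, n = 4), with overlapping groups. The number of reads at site 2 was small, 17 to 44 in control and 36 to 56 in obesity, and the widest 95% Wilson interval of its share spanned 2.49 percentage points. Its ratio to site 1 was higher in obesity on average, and its ratio to site 3 lower. Per 100 reads of site 1 there were 2.64 to 8.63 reads of site 2 in control and 7.93 to 16.3 in obesity, and control 4 lay above obesity 3. Per 100 reads of site 3 there were 2.37 to 6.43 reads of site 2 for control against 1.44 to 2.11 for obesity, without overlap. No such ratio was computed for other genes, and the gene was chosen on these same reads, so nothing is read from this.

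Shares that do not overlap between groups are uncommon in this table but far from unique. Among 58155 sites of genes with 2 or more sites, 1.33% had a share that was higher in every obesity library than in every control library, and 1.46% had one that was lower in every obesity library. Since the gene was chosen on this contrast, nothing is read from its place in that background. In the test of site usage within genes (edgeR, adjusted p of 0.1), 0 of 7996 genes (0%) were called and 109 had an unadjusted p under 0.05. With the library number as a block, 1 gene (0.0125%) was called. It was LOC108351197 itself, so the call restates how the gene was chosen and supports nothing.

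For scale, the size of the difference is set beside that of other genes, again as a description of values the choice rested on. Taking for each of 2313 genes with 2 or more sites and a mean of at least 100 reads per library the site whose mean share differed most, the median difference was 5.87 percentage points and the 95th percentile 14.8. LOC108351197 ranked second with 32.1, and it ranked first of 48 long non-coding genes, whose median was 6.67. The larger value belonged to LOC102555672, where a site on chromosome 1 went from 21.3% ± 3.93 to 55.3% ± 23.8 with overlapping groups. Next below LOC108351197 came Cd59, a complement inhibitor of the cell surface, where a site went from 31.3% ± 13.8 to 62.9% ± 5.93 (SD, n = 4). Among 115 genes with a mean read number within 2-fold of that of LOC108351197, the median was 3.41 percentage points and this gene had the largest difference. A high rank is built into the choice of the gene, so these ranks support nothing.

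**Figure D2:**
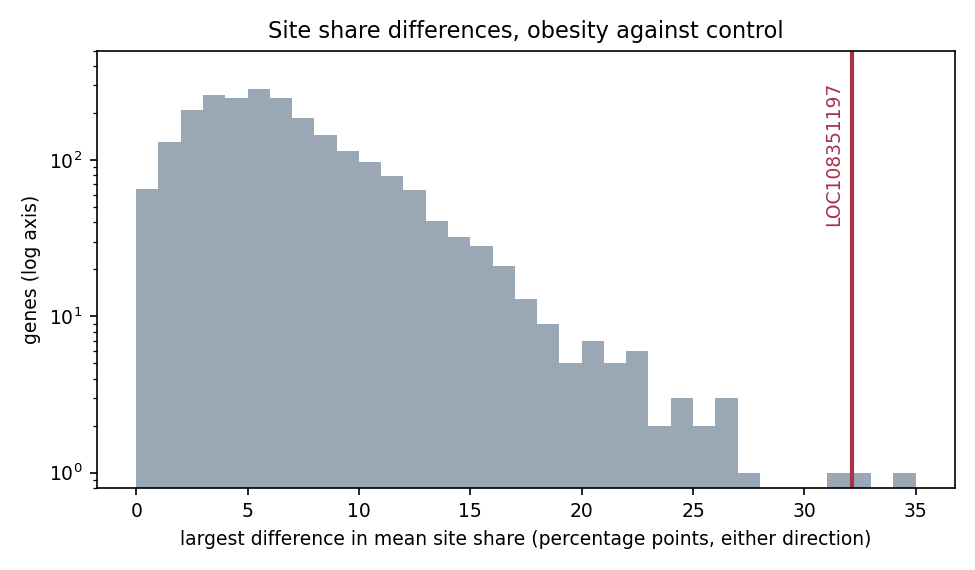
The histogram counts genes (y axis, log scale) by their largest difference in mean site share between obesity and control in percentage points (x axis), over 2313 genes. The vertical line marks LOC108351197 at 32.1, beyond the bulk of genes around the median of 5.87.

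A share can move with either end, so the level of each site is given next. For library numbers 1 to 4, site 3 had 736, 299, 1475 and 684 reads in the controls against 3890, 2715, 1917 and 2224 in the obesity rats. On the scale of CPM this was 414, 172, 1083 and 451 in control and 2203, 1880, 970.2 and 1247 in obesity. Raw reads did not overlap between the groups, but CPM did, because control 3, the library with the fewest reads, had 1083 CPM and obesity 3, the one with the most, had 970.2.

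Mean site 3 levels were 530 ± 389 CPM for control against 1575 ± 566 CPM for obesity (SD, n = 4), and the fitted log2 fold change was 1.57 (SE 0.45). Within library numbers, site 3 was 5.32-fold, 10.9-fold and 2.77-fold higher in obesity for numbers 1, 2 and 4, but 0.896-fold for number 3. Control 3 was the only control above any obesity library, so leaving it out separates the groups by construction. The log2 fold change was then 2.198.

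Site 1 went the other way, and its spread differed between the groups. In number order it had 757, 339, 797 and 510 reads in the controls and 358, 332, 454 and 362 in the obesity rats. As levels these were 426, 195, 585 and 336 CPM against 203, 230, 230 and 203 CPM. The obesity libraries sat close together at 216 ± 15.6 CPM, while the controls ranged widely at 386 ± 164 CPM (SD, n = 4), and control 2 lay below all of obesity. The fitted log2 fold change was -0.83 (SE 0.32), and without control 3 it was -0.56.

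Site 2 had a level of 18.9 ± 9.82 CPM for control against 28.4 ± 8.16 CPM for obesity (SD, n = 4), with a log2 fold change of 0.59 (SE 0.46), and it was higher in obesity for library numbers 1 and 2 only. Of the 3 sites, none had CPM levels without overlap, against 3.11% of all 73922 sites in either direction.

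**Figure D3:**
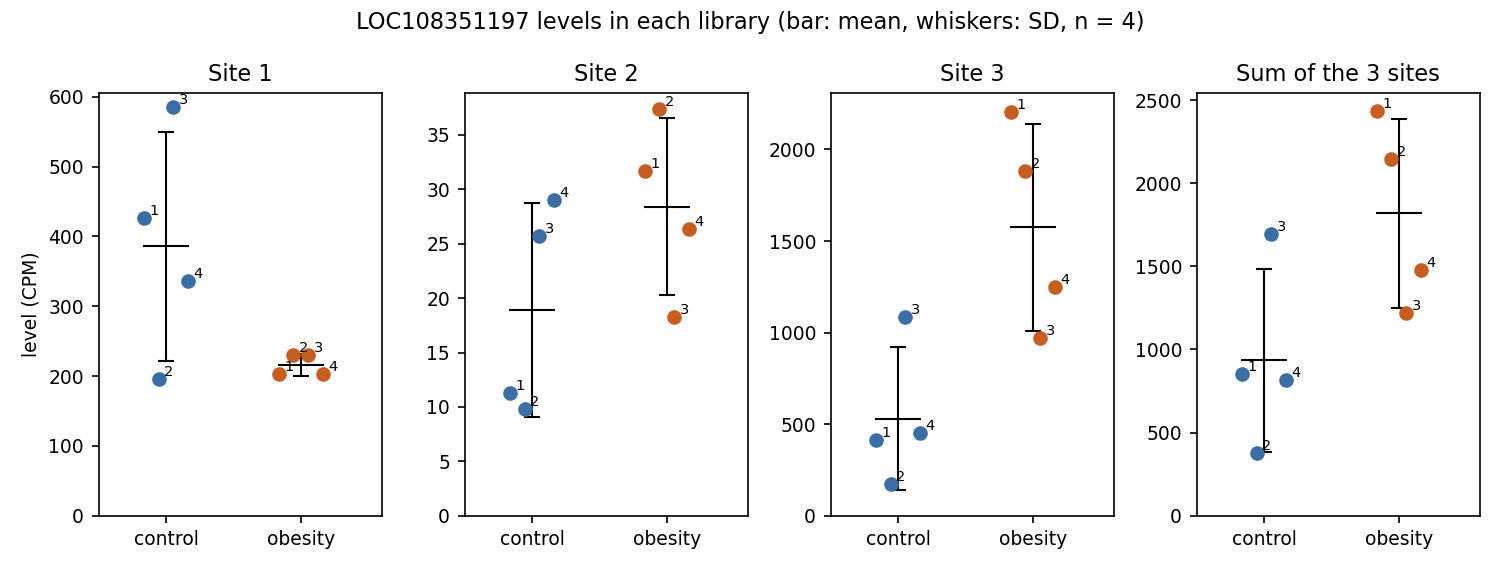
Each panel shows the level in CPM (y axis, from 0) of site 1, site 2, site 3 or their sum in the 4 control and 4 obesity libraries, with points numbered by library, a bar for the mean and whiskers for the SD. Control 3 stands highest of the controls for site 1, site 3 and the sum, and the groups overlap in all panels.

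The total of the gene followed site 3. In number order it was 852, 377, 1694 and 816 CPM for control and 2437, 2148, 1218 and 1476 CPM for obesity. Control 3 lay above obesity 3 and obesity 4, so the groups overlapped, while 1.27% of all genes had levels without overlap and higher in obesity. Mean totals were 934 ± 550.2 and 1820 ± 568 CPM (SD, n = 4), with a log2 fold change of 1.05 (SE 0.39). Control 3 lay above obesity 3 without the TMM adjustment as well. Without control 3, which alone made the groups overlap, the log2 fold change was 1.46.

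The ratio of the ends does not depend on how libraries are scaled. Site 3 had 0.972, 0.882, 1.85 and 1.34 reads per read of site 1 in controls 1 to 4, against 10.9, 8.18, 4.22 and 6.14 in the obesity rats. Controls 1, 2 and 4 had between 0.882 and 1.34 distal reads per proximal read and control 3 had the most of the controls, below every obesity library. The ratio uses the same reads as the shares the gene was chosen on, so nothing is read from that separation. The mean ratio was 1.26 ± 0.440 for control against 7.35 ± 2.85 for obesity (SD, n = 4), and it was higher in obesity in 4 of 4 library numbers, by 11.2-fold, 9.27-fold, 2.28-fold and 4.58-fold for numbers 1 to 4.

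Over the 8 libraries, site 1 and site 3 were nearly unrelated, with Pearson's r of -0.11 and Spearman's rho of -0.095 for log2(CPM + 1). After removal of the group means, r was 0.82. Site 2 had r of 0.82 with site 3 and of -0.051 with site 1, or 0.77 and 0.46 with group means removed. Among controls, number 2 was lowest and number 3 highest at both ends. In obesity the ends did not run together, as number 1 was lowest at site 1 and highest at site 3. These correlations are descriptions over few libraries that share depth and scaling, and they carry no p.

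**Figure D4:**
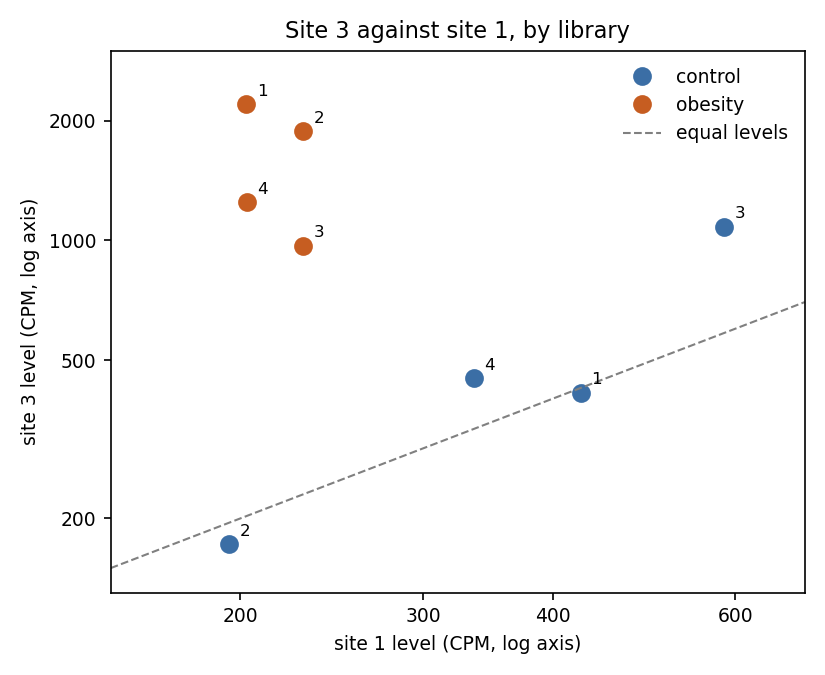
Site 3 level (y axis, CPM, log scale) is plotted against site 1 level (x axis, CPM, log scale) for each numbered library, with a dashed line at equal levels. Control libraries lie close to the line, at 0.882 to 1.85 reads of site 3 per read of site 1, and obesity libraries lie above it, at 4.22 to 10.9.

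Other RNAs with a similar course over the libraries were sought among 4300 genes with a mean of at least 50 reads. By Pearson's r of log2(CPM + 1) over 8 libraries, the genes closest to the LOC108351197 total were Lrfn2, a synaptic adhesion molecule, at 0.90, the long non-coding LOC103690249 at 0.88, Rgs9, a regulator of G protein signalling, at 0.85, the long non-coding LOC102552179 at 0.83 and Stxbp5l, a tomosyn of the vesicle fusion machinery, at 0.83. Their own log2 fold changes were small, from 0.24 to 0.55, with edgeR adjusted p-values of 0.921 to 0.968. Without the 2 libraries farthest from the median of the gene, r fell to 0.35 to 0.74, and by rank correlation only LOC103690249 was again among the 5 closest. Likeness of the gene total thus depended on the extreme libraries.

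With group means removed, the genes among the 5 closest that are given here were Tp53inp2, an autophagy factor, at 0.96, Rn45s, the precursor of nuclear ribosomal RNA, at 0.90, Rpn2, a subunit of the oligosaccharyltransferase, at 0.89 and the zinc finger gene Zfp638 at 0.88. These 4 had lower mean levels in obesity, with log2 fold changes of -0.60 to -0.11 and edgeR adjusted p-values of 0.921 to 0.984. In deviations pooled over both groups, therefore, the gene varied together with RNAs that did not share its difference between groups.

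The same search over 3882 single sites was made after the data were seen. For site 1 the closest was a site of Clmp, a cell adhesion gene, at r = 0.97 (0.98 with group means removed), followed by sites of Ppdpf and of Slc32a1, the vesicular GABA transporter, both at 0.95, LOC100361008 at 0.95 and a site without a gene at 0.95. The Slc32a1 site had 298, 121, 290 and 229 reads in control and 182, 135, 219 and 174 in obesity, with control 2 the lowest control, as at site 1. Leaving out the 2 libraries farthest from the median left r of 0.87 for Clmp.

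Some abundant ends on chromosome 14, where the ribosomal RNA genes are listed, showed that course and others did not. The main 3′ site of Rn45s, on chromosome 14 (plus strand, 46655140 to 46655334), had rank 10 for site 1 at r = 0.93, with 5348, 3122, 7115 and 4438 reads in control and 3539, 4057, 3887 and 3559 in obesity. A site without a gene further upstream (46525761 to 46525847) had rank 11 at 0.93, or rank 2 at 0.98 with group means removed, with 4641, 2184, 5972 and 3125 reads in control and 2857, 3006, 3974 and 2804 in obesity. Among controls, number 2 was lowest and number 3 highest at both, as at site 1. Another site of Rn45s had r of 0.58 with site 1 (rank 566), and the main site of Rn18s, with 10444, 4712, 4435 and 2980 reads in control and 9762, 6366, 4672 and 3728 in obesity, had 0.16 (rank 1835). All sites of Rn45s and Rn18s together held 0.466% to 0.941% of reads in control and 0.428% to 0.773% in obesity. Their part in the values of LOC108351197 was not tested, and the sources used here do not say how reads matching several places were counted.

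For site 3 the closest was a site of Apoe, the lipid carrier made by astrocytes, on chromosome 1 (minus strand, 80613446 to 80613595) at r = 0.96. It had 59, 27, 73 and 51 reads in control and 222, 240, 191 and 149 in obesity, and its log2 fold change of 1.80 (SE 0.40) had an edgeR adjusted p of 1.00, or 0.0768 with the library number as a block. Next was a site of LOC310926 (chromosome 1, minus strand, 11908808 to 11908839) at 0.92, with 73, 81, 220 and 98 reads in control and 458, 527, 333 and 234 in obesity. After it came a site without a gene on chromosome 14 (plus strand, 46517709 to 46517777) at 0.90, which lies upstream of the unassigned site that resembled site 1.

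That chromosome 14 site had 101, 39, 81 and 68 reads in control and 1558, 658, 495 and 746 in obesity. It was the only site of 73922 (0.00135%) with an edgeR adjusted p under 0.1, at 0.0937, and one of 4 (0.00541%) with the block. Another site of Apoe and another of LOC310926 completed the first 5, at 0.86 and 0.85. Without the 2 farthest libraries, r for the first 5 was 0.68 to 0.92. With group means removed, it was 0.65 to 0.93 for these 5, and the main Rn45s site had 0.90 with site 3 (rank 6) as it had 0.92 with site 1 (rank 13), and the abundant unassigned site 0.81 with site 3. In deviations pooled over both groups, the main Rn45s site was thus close to both ends of LOC108351197. With the group means kept, it was close to site 1 only. Its r with site 3 was then 0.12 (rank 988), and that of the abundant unassigned site with site 3 was 0.21 (rank 718). On chromosome 14, an end that was higher in every obesity library thus stood near one whose groups overlapped.

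**Figure D5:**
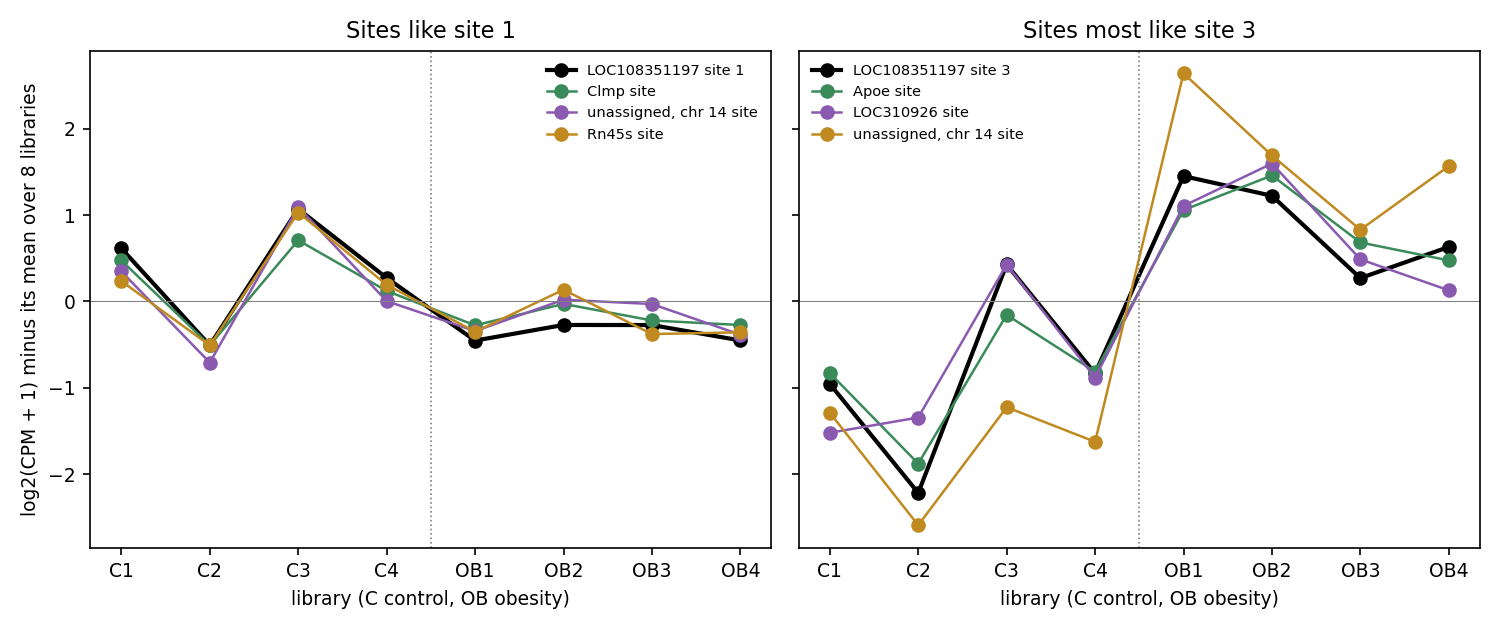
Lines give log2(CPM + 1) minus its mean over the 8 libraries (y axis) for each library (x axis, C control, OB obesity), for site 1 with 3 sites like it (left) and site 3 with the 3 sites most like it (right). The left profiles are lowest of the controls in control 2 and highest in control 3, and the right ones lie above 0 in all 4 obesity libraries and below 0 in the controls, except site 3 and LOC310926 in control 3.

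The surroundings on chromosome 6 were sparse. Within 2 Mb on either side 7 other genes had sites, and with edgeR 0 of the 7 had an adjusted p under 0.1, either without the block, where the background was 0%, or with it. An unadjusted p under 0.05 was reached by 1 of them without the block, where 5.12% of all genes reached it, and by 2 with it, where 10.9% did. All 7 lay on the lower side of the gene, and the median log2 fold change was 0.40, with 6 of 7 above 0.

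The nearest gene with a site was the long non-coding LOC100912293, 149.5 kb away, which had 0 to 5 reads per control library and 2 to 12 per obesity library. LOC257642, 409.7 kb away on the same strand, had 19, 7, 32 and 4 reads in control and 76, 97, 26 and 31 in obesity, and its groups overlapped. Its log2 fold change was 1.87 (SE 0.65), at an adjusted p of 0.921 by edgeR, or 0.23 with the block. Itsn2, an endocytic scaffold gene 843 kb away, was level at 325 ± 45.5 and 350 ± 76.2 CPM (SD, n = 4, log2 fold change 0.16, edgeR adjusted p 0.979). Beyond the gene, the nearest with sites were Ldah, Hs1bp3 and LOC102550373, over 2 Mb away, each with at most 16 reads in a library. The nearest site without a gene was 101 kb away and had 32 reads in all, and 0 lay within 50 kb, so the 3 ends were not part of a longer run of listed sites.

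Among long non-coding genes, few could be set beside it. There were 79 others with exactly 3 sites, of which 50 had a log2 fold change above 0 and 29 below. Their median was 0.19 against 0.00 over all genes. An adjusted p of 0.1 (edgeR) was passed by 0 of them and by 0% of all genes. The median peer had a mean of 21.9 reads per library against 2270 for LOC108351197, and only LOC102556677 had at least 100, with 524. In that gene the main site went from 87.5% ± 5.15 to 94.5% ± 2.19 of gene reads (SD, n = 4), a difference of 6.95 percentage points. Its groups did not overlap, as was the case in 243 of the 2313 genes above for their most different site. The median peer had a largest share difference of 13.1 percentage points, and 5 peers, none of them with 100 reads, had a larger one than LOC108351197.

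Of 14 known brain long non-coding RNAs, 3 had sites under these names, and 0 of 3 passed an adjusted p of 0.1 (edgeR). The share over all genes was 0% as well. Miat, a nuclear RNA of neurons, had 209 ± 45.3 CPM in control and 281 ± 90.4 in obesity, a log2 fold change of 0.49. Snhg11, a host of small nucleolar RNAs, had 1242 ± 309 and 988 ± 139 CPM, a log2 fold change of -0.26. Gas5, another such host, had 198 ± 88.9 and 136 ± 47.0 CPM (SD, n = 4), with a log2 change of -0.47. The list had a median log2 fold change of -0.26, while LOC108351197 had 1.05.

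The labelled tissue was checked with marker genes. Of 15 markers of hypothalamic neurons 14 had sites, with a summed level of 990 to 1457 CPM in control and 780 to 1132 in obesity, and Nr5a1 had none. Oligodendrocyte markers (11 of 11) summed to 14091 to 20937 CPM in control and 10315 to 18347 in obesity. All 11 had a log2 fold change below 0, and 0 were called without the block, against 0% of all genes. Astrocyte markers (8 of 8) summed to 2744 to 4202 and 1909 to 3384. Pan-neuronal markers (7 of 8) summed to 2859 to 3643 CPM and 2575 to 3162. Smaller sums came from microglia (4 of 8 markers, 65.3 to 117 CPM in control and 26.0 to 93.5 in obesity), endothelium (4 of 6, 42.6 to 72.7 and 40.2 to 84.9), ependyma and tanycytes (2 of 5, 10.1 to 15.4 and 10.1 to 14.2) and red blood cells (3 of 4, 36.2 to 55.8 and 15.9 to 75.1).

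Of the lists for neighbouring tissue, thalamus markers (6 of 7) summed to 110 to 212 CPM in control and 69.1 to 219 in obesity. Midbrain dopamine markers (4 of 7) summed to 40.8 to 61.9 and 14.6 to 50.1. Slc6a3, En1 and Pitx3 of that list had no sites, and the tissue these reads came from was not tested. Anterior pituitary markers (3 of 6) summed to 15.8 to 44.5 and 5.05 to 108, and choroid plexus markers (1 of 5) to 0 to 1.32 and 0 to 80.7. The value of 108 was that of obesity 2, with Gh1 at 60.3 and Lhb at 40.2 CPM. The value of 80.7 was that of Ttr in obesity 4. Gh1 and Ttr were at 0 in the other obesity libraries, and the source of these reads was not tested. Sums of all 12 lists overlapped between the groups. By library number, the sums for hypothalamic neurons, astrocytes, microglia and midbrain dopamine neurons were lower in obesity in 4 of 4 pairs. Their members went both ways, with 6 of 14, 2 of 8, 2 of 4 and 1 of 4 above 0 in log2 fold change. The largest members were Avp, S100b, Csf1r and Th, at 839 of 1249, 1672 of 3577, 55.8 of 89.0 and 33.4 of 53.1 CPM in mean control. The part of these lists in the values of LOC108351197 was not tested. The only list member called was Th, the rate-limiting enzyme of dopamine synthesis, and only with the block (edgeR adjusted p 0.088, or 0.921 without it), at 33.4 ± 4.96 CPM for control against 10.003 ± 9.70 CPM for obesity (SD, n = 4). Of all 12255 genes, the block called 34 (0.277%), 27 of them lower in obesity, against 0 (0%) without it. Over the 8 libraries the correlation of the list sums with the LOC108351197 total ranged from -0.42 to 0.44, a description over libraries that share depth and scaling.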

How the data were processed

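WTTS-seq libraries were made from rat hypothalamus RNA, 4 per group as labelled. The authors deposited, for each polyadenylation site, whole-number read counts without normalization. The submitters' processing notes name Bowtie2 2.2.3 and Rnor_6.0, and filters and gene assignment are not given in the sources used here. The lowest site total was 30 reads. A line without a site, which repeated a column total of 1710888 reads, was left out, and 273 marks in the symbol field were treated as no gene.

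Gene counts were sums over sites on the strand with most reads. Sites and genes were tested with the edgeR 4.0.16 quasi-likelihood test (robust, TMM) in R 4.3.3 and site usage with its diffSpliceDGE (Simes), each with Benjamini-Hochberg adjustment over the whole table. Standard errors are the log2 fold change over the root of F. Alternatives included DESeq2 1.42.0. The scripts were tested on simulated data.

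Both groups carry numbers 1 to 4. Same-numbered libraries deviated together from their group means (r of 0.363 to 0.575 over log2 CPM) while others gave r of -0.346 to 0.143, so the numbers were taken to pair libraries, as a hint from the data. P-values measure the spread between these samples. The main fits left this pairing out, and fits with the number as a block are given beside them. The smallest chi-square between any pair of libraries was 4.03 per site, above sampling noise, for control 2 and obesity 2. For same-numbered pairs 1, 3 and 4 it was 9.02, 9.44 and 6.1, and within a group it ranged from 8.15 to 17.6.

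The gene, lists and tests were chosen with earlier results of these data known. Named genes are, by rule, the 5 closest by correlation (with and without group means), the 3 nearest on each side, the most abundant peers and list members, and the 3 largest share differences. One gene under this rule is not reported here. LOC100361008 and other sites in the search over single sites, and the ribosomal RNA sites, were chosen after their values were seen.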

Additional observations from a re-analysis of the deposited data

Results flagged for a closer look

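In 80 checks of groups of 4 libraries over the values reported, 4 had a highest or lowest library separated from the rest by more than Dixon's 95% limit. Chance gives about 1 in 20, or 4 here. LOC103690249 was at 47.7 CPM in control library 2, against 57.4 to 58.7 in the other controls. LOC102552179 was at 45.3 CPM in obesity library 1, against 31.4 to 31.9. Rn45s was at 3052 CPM in obesity library 2, against 2056 to 2149, and its main 3′ site at 2810 CPM there, against 1967 to 2004. In none of the checks on the sites, shares and total of LOC108351197 did a library stand apart in this way.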

How the results depend on the processing

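The log2 fold changes of the LOC108351197 total and of its 3 sites kept their sign under every alternative run. They moved by less than the spread (SD) between libraries. Removal of 1 of 4 libraries can hardly move a mean by that much, so nothing is read from this. Leaving out one library at a time gave 0.79 (without control 2) to 1.46 (without control 3) for the total, -1.06 to -0.56 for site 1, 0.37 to 0.87 for site 2 and 1.28 (without control 2) to 2.198 (without control 3) for site 3. The share difference ranged from -34.8 to -29.0 percentage points for site 1 and from 29.6 to 35.7 for site 3. With the replicate number as a block the fold changes were 1.16 (SE 0.60) for the total and -0.74 (SE 0.23) for site 1. For sites 2 and 3 they were 0.67 (SE 0.41) and 1.81 (SE 0.66). The ratio of the group means of site 3 per site 1 was 4.90 to 6.90 with one library left out. The share that counts unassigned sites within 5 kb could not be computed because there were none.

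Counts over the whole table depended on the fit. The replicate block gave 34 genes, 4 sites and 1 gene of site usage, against 0, 1 and 0 without it, and the DESeq2 Wald test gave 4 genes and 10 sites. filterByExpr gave 0 sites. Leaving out one library gave 0 to 1 genes, with 1 without obesity 2, and 0 to 1 sites, with 1 without obesity 3 and 0 without each of the other 7. Of the features named, the block changed the calls of the first Apoe site and of Th, given above, and of Bc1, given below, and no other call apart from site usage in LOC108351197, where the choice of the gene rests on the same values. By rank correlation 1 of the 5 closest genes was shared. The cause of these differences was not tested. Site 2 and the minus-strand site are limited by their few reads.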

Other observations

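Of 795 long non-coding RNA genes, 493 had a log2 fold change above 0, with a median of 0.17 against 0.00 over all genes. An adjusted p of 0.1 (edgeR) was passed by 0% of all genes without the replicate block and by 0.277% with it. Among the 795 it was passed by 0 genes without the block and by 1 with it. That gene was Bc1, a small cytoplasmic RNA of neurons, named after its value was seen, with a log2 fold change of -0.61 and an adjusted p of 0.0606 with the block, or 0.921 without it. The 795 genes together held 4.06% to 5.72% of reads in control and 5.60% to 7.26% in obesity. Without LOC108351197 the ranges were 3.90% to 5.64% and 5.38% to 7.11%, and both pairs of ranges overlapped.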
